A study of Homo sapiens with 6 samples.

Results

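The epidermal growth factor receptor (EGFR) family is described here through 10 genes, the receptors EGFR, ERBB2 and ERBB3, the ligands AREG, EREG, HBEGF, TGFA, BTC and NRG1, and the feedback inhibitor ERRFI1. They were taken by gene symbol, with earlier results of these data known, from 62710 genes in the count table, and each symbol matched 1 row. All 10 were expressed above the filter on low counts. The table came from 6 RNA-seq libraries of A549, an established human lung adenocarcinoma line. The control group held 3 libraries of untreated cells, and the PS-MP group held 3 libraries of cells kept with polystyrene microplastic particles at a labelled 20 mg/mL for 48 h, called exposed libraries here. Both groups shared the same line and medium with serum, the particle size is not given in the labels, and the title of the series names NF-kB activation and radiotherapy resistance as its subject. Whether the libraries of a group are from different dishes is not labelled, and p-values therefore reflect sample-to-sample spread that may be technical.

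Receptors of this family are cell-surface tyrosine kinases that signal as pairs. EGFR binds AREG, EREG, HBEGF, TGFA and BTC, ERBB2 has no known ligand of its own and serves as a partner, and ERBB3, whose kinase is impaired, binds neuregulins such as NRG1. The ligands are made as membrane-anchored precursors and are released by metalloproteases such as ADAM17. ERRFI1, also called MIG6, binds the EGFR kinase domain and blocks it, and its transcript is known to be induced by signalling downstream of the receptor. In airway epithelium the family is known for its part in repair and in the growth of lung adenocarcinoma.

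In cells kept with particles, 1 of the 10 genes passed the test, the ligand NRG1, which was 1.28-fold higher. In bulk libraries fewer cells that express a gene and less of its RNA per cell cannot be told apart. Over all 15458 tested genes 9.56% were called (4.91% higher and 4.65% lower), so 1 of 10 higher and 0 of 10 lower are near the background. The receptors EGFR and ERBB2 and the inhibitor ERRFI1 had log2 fold changes between −0.15 and −0.01, and their 95% intervals lay between −0.51 and 0.21. TGFA and BTC were also above every control in every PS-MP library but missed the threshold. AREG, EREG and ERBB3 differed more between replicates of 1 group than between the groups.

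Total counts ran from 17013293 to 21316451 per library, where 3 counts stand for 0.137 to 0.177 CPM (gene counts scaled to the size of the library, with TMM factors). In each group the third replicate was farther from the others, with a correlation of log2 CPM to its group of 0.984 and 0.985 in control libraries and 0.984 and 0.981 in the exposed libraries, against 0.994 and 0.992 between replicates 1 and 2. The keratin genes KRT7, KRT8 and KRT18 and the aldo-keto reductases of A549 were abundant. The keratin gene KRT19 and the epithelial marker EPCAM were lower. Their means were 16.03 and 2.467 CPM in control libraries and 16.72 and 2.179 CPM in the exposed libraries. CDKN2A, which is deleted in this line, had 0 counts in every library. The 10 leukocyte markers summed to 20.1 to 24.3 CPM without particles and 24.4 to 37.3 CPM in the exposed libraries, nearly all of it CD14, with PTPRC at no more than 0.116 CPM. The 10 fibroblast markers summed to 12.3 to 18.0 CPM and 26.7 to 37.3 CPM, of which ACTA2 and DCN rose (log2 fold changes 1.42 and 1.11, edgeR adjusted p = 0.002 and adjusted p = 0.0245), while COL1A2 had 0 counts throughout. The 10 endothelial markers summed to 3.34 to 5.18 CPM and 3.13 to 4.54 CPM. The part of these genes in the results below was not tested.

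Among the receptors, EGFR (ENSG00000146648, chromosome 7, 55019017 to 55211628 in the deposited GRCh38 annotation) had 210.5, 223 and 151 CPM in control replicates 1, 2 and 3 and 204, 176 and 146 CPM in PS-MP replicates 1, 2 and 3. The groups overlapped, and replicate 3 was the lowest library of each. The mean was 195 ± 38.3 CPM without particles and 175.5 ± 29.2 CPM in the exposed cells (SD, n = 3), a log2 fold change of −0.15 ± 0.16 (SE) with a 95% interval from −0.51 to 0.20, and it did not pass (edgeR quasi-likelihood test, two-sided, Benjamini-Hochberg adjusted over all tested genes, adjusted p = 0.613). ERBB2 (ENSG00000141736, chromosome 17, 39687914 to 39730426), the partner receptor also known as HER2, had 67.6, 65.3 and 57.2 CPM without particles and 63.2, 62.9 and 62.5 CPM in the exposed libraries. Its exposed libraries all lay inside the control range (log2 fold change −0.01 ± 0.10, 95% interval −0.23 to 0.21, adjusted p = 0.964), and the sign turned without control replicate 1 (0.03) or control replicate 2 (0.01). MIEN1 and PGAP3 overlap ERBB2 on the opposite strand with up to 774 and 415 counts. The library kit keeps strand, but the strand setting of the counting is not given, so the assignment of reads in the overlap is uncertain.

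ERBB3 (ENSG00000065361, chromosome 12, 56076799 to 56103505) had 29.97, 28.2 and 16.03 CPM without particles and 14.9, 15.0 and 27.7 CPM in the exposed libraries. The libraries thus fell at a higher and a lower level, and replicate 3 of each group lay at the level of the other group's replicates 1 and 2. Over all 6 libraries the log2 fold change was −0.36 ± 0.27 (95% interval −0.96 to 0.24, adjusted p = 0.457). Leaving out both replicate 3 libraries, an alternative added after the data were seen, gave −0.96 with an adjusted p of 2.88e-05. Under that alternative 26.6% of 15503 tested genes were called, among them ERBB3, EREG and NRG1 of the 10 members. Control replicate 3 stood −0.86 and PS-MP replicate 3 0.88 from the mean of the other replicates of its group (log2 CPM), distances that 5.85% and 5.48% of all tested genes reached.

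**Figure D1:**
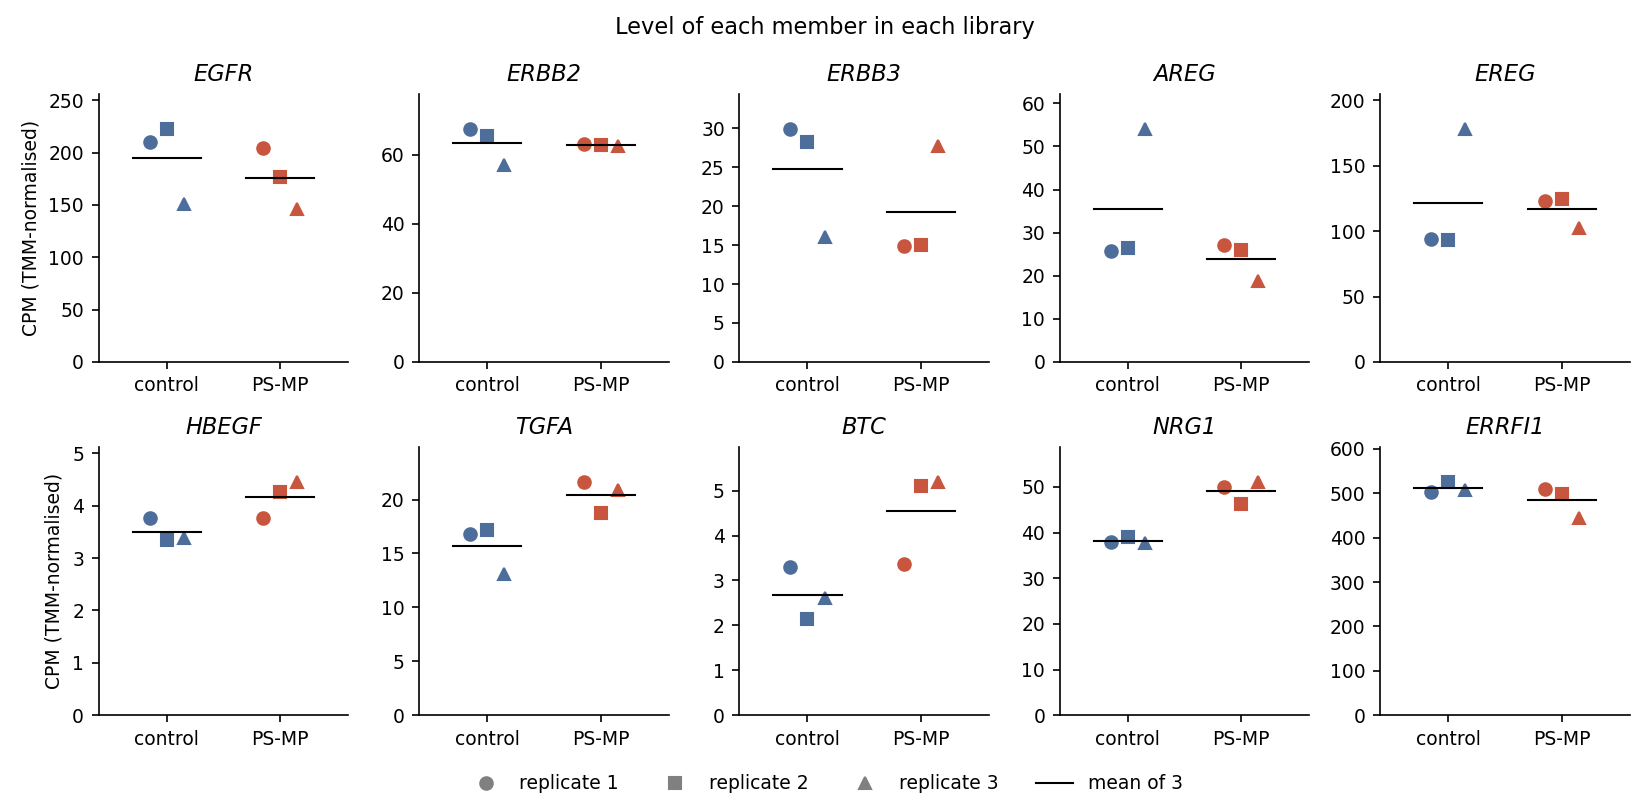
Each panel plots 1 gene, with its level in CPM on a linear axis from 0 against the group, 1 point per library (shape gives the replicate, colour the group) and a bar at the mean of 3. NRG1, TGFA and BTC had no overlap between groups, ERBB3 was at 16.03 CPM in control replicate 3 and 27.7 CPM in PS-MP replicate 3, and AREG and EREG were highest in control replicate 3.

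The ligand genes fell into those on chromosome 4 and the others. EREG, AREG and BTC lie there within 1 region, next to a run of chemokine genes. The sequences in front of these ligands are shown with that of the chemokine gene CXCL1, because CXCL1 was called and the ligands were not. The log2 ratios of CXCL1 to EREG, AREG and BTC were higher by 1.24, 1.73 and 0.49 in the exposed libraries. The exact permutation p was 0.1, 0.1 and 0.2 (adjusted p = 0.136, 0.136 and 0.214 over 15 ratios). With 3 libraries per group 0.1 is the smallest possible p, so none could pass at 0.05. The groups did not overlap in the ratios to EREG and AREG and overlapped in that to BTC. Whether the sequences bear on these differences was not tested. Each is the RefSeq promoter window of 300 bases, from 250 before the annotated start (GRCh38.p14), printed 5′ to 3′ on the gene's strand. AREG is at chr4:74444886-74445185 and EREG at chr4:74364895-74365194 on the plus strand, BTC at chr4:74794474-74794773 on the minus strand and CXCL1 at chr4:73869143-73869442 on the plus strand. Capitals mark matches on either strand to the TATA box (letters TATAAA), the core of the cyclic AMP response element (TGACG), the GC box (letters GGGCGG), the TEAD motif (letters GGAATG), the AP-1 motif (letters TGANTCA) or the NF-kB consensus, and matches may overlap.
AREG: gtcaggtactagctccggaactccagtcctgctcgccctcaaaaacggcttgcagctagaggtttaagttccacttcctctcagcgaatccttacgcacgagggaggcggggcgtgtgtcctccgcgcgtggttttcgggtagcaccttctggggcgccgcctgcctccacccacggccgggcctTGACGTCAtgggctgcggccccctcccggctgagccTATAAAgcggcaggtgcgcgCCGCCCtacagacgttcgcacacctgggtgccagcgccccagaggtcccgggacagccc
EREG: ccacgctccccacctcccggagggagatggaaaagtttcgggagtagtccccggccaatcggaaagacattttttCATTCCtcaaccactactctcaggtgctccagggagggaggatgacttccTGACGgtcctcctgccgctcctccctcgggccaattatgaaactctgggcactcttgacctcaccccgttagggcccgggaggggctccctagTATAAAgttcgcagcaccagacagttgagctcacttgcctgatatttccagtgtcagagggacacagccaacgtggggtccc
BTC: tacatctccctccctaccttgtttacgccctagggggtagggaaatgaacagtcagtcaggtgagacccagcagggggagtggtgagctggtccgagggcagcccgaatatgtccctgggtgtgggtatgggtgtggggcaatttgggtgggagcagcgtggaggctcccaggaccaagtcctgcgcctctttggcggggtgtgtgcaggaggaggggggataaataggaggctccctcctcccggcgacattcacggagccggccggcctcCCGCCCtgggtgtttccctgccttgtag
CXCL1: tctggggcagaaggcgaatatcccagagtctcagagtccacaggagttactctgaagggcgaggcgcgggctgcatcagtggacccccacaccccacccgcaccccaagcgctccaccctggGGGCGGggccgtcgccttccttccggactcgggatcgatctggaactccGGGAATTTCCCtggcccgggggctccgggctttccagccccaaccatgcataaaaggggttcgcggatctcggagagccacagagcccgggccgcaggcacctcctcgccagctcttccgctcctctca
The AREG window holds a TATA box at −29, a GC box match at −9 and overlapping matches to TGACG on both strands between −65 and −58. Positions are counted from the first transcribed base as 0. The EREG window holds a TATA box at −32, TGACG at −125 and GGAATG at −175, and the BTC window a GC box match at 22. Of 35116 promoter windows of the same length, 11.5% hold the TATA box letters, 24.6% those of the cyclic AMP element, 45.0% the GC box, 14.0% the TEAD letters, 7.71% the AP-1 letters and 5.91% the NF-kB consensus. The NF-kB consensus was found in none of the windows of AREG, EREG and BTC, in that of TGFA on chromosome 2, and in those of CXCL1, CXCL2, CXCL3 and CXCL5 but not CXCL8. The letters TGACG were also in the windows of CXCL2, CXCL3 and CXCL8, and the TATA box letters in that of CXCL8. A match is a description of these letters and not of binding, and its absence says only that these letters are not in the window.

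EREG (ENSG00000124882, 74365145 to 74388749), epiregulin, had 93.7, 93.1 and 178 CPM without particles and 123, 124 and 102 CPM in the exposed libraries. All exposed libraries exceeded control replicates 1 and 2, and control replicate 3 exceeded them all. It had a log2 fold change of −0.06 ± 0.22 (95% interval −0.55 to 0.42, adjusted p = 0.891). The value became 0.32 without control replicate 3 (adjusted p = 0.131), 0.02 when PS-MP replicate 3 was dropped, and 0.40 when both were (adjusted p = 0.000842). Dropping both was an alternative added after the data were seen, under which 26.6% of tested genes were called. AREG (ENSG00000109321, 74445136 to 74455005), amphiregulin, had 25.7, 26.5 and 54.1 CPM without particles and 27.0, 26.0 and 18.9 CPM in the exposed libraries. Control replicate 3 was again the highest library, and PS-MP replicates 1 and 2 lay near control replicates 1 and 2. AREG had a log2 fold change of −0.57 ± 0.26 (95% interval −1.15 to 0.01, adjusted p = 0.219), −0.13 without control replicate 3 and 0.02 without both replicate 3 libraries.

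Control replicate 3 thus held about the same excess of both neighbouring ligands, 0.93 for EREG and 1.05 for AREG above the mean of control replicates 1 and 2 (log2 CPM), which 4.50% and 3.02% of all tested genes reached in either direction. The ratio of EREG to AREG counts, which no scaling between libraries changes, was 3.65, 3.51 and 3.29 in control libraries and 4.55, 4.78 and 5.41 in the exposed libraries. The log2 ratio was higher by 0.49 in the exposed libraries (exact permutation test, p = 0.1, the smallest possible). It was examined after the values of both genes had been seen and is a description. The control libraries held the 3 lowest ratios.

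BTC (ENSG00000174808, 74744759 to 74794523), betacellulin, had the lowest level per length of the ligands in the control libraries. It had 3.30, 2.15 and 2.61 CPM without particles and 3.36, 5.10 and 5.20 CPM in the exposed libraries, from 47 to 57 counts per control and 58 to 98 counts per PS-MP library. PS-MP replicate 1 lay just above control replicate 1, so the groups were separate by a narrow margin. The log2 fold change of 0.77 ± 0.25 was the highest of the 10 (95% interval 0.23 to 1.31), and its adjusted p was 0.0791. BTC passed in 1 of 15 alternatives, that with no filter on low counts (adjusted p = 0.0361). Its adjusted p ran from 0.0656 to 0.255 with 1 library left out and was 0.194 with the replicate number as a block.

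Within 1 Mb of EREG, AREG and BTC the table lists 57 genes, 20 of them tested. Of these, 5 were called, all higher, beside 4.91% called higher over all tested genes, and all were chemokine genes that attract neutrophils: CXCL8, CXCL1, CXCL5, CXCL3 and CXCL2. CXCL8 ran from 99.4 to 131 CPM without particles and from 276 to 401 CPM in the exposed libraries (log2 fold change 1.54, edgeR adjusted p = 0.000195). CXCL1 ran from 81.2 to 89.5 CPM and from 186 to 226 CPM (1.24, adjusted p = 9.85e-05), and CXCL5 from 428 to 435 CPM and from 891 to 1122 CPM (1.19, adjusted p = 0.000137). CXCL3 and CXCL2 had log2 fold changes of 1.45 and 1.13 (adjusted p = 0.000333 and adjusted p = 0.00128). All 5 kept their calls in each of 15 alternatives. The median log2 fold change of the 20 genes was 0.20, against 0.002 over all tested genes.

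**Figure D2:**
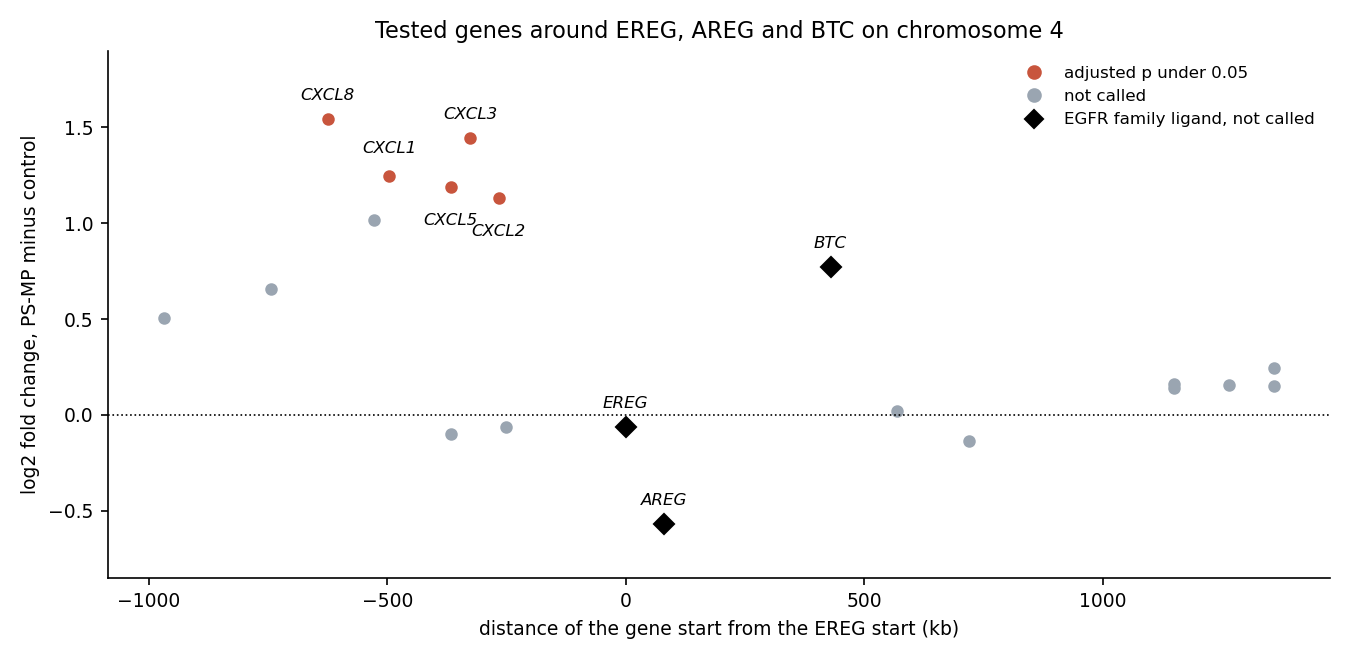
The log2 fold change of PS-MP against control (vertical axis) is plotted for the 20 tested genes within 1 Mb of EREG, AREG and BTC against the distance of their start from that of EREG in kb. The 5 called chemokine genes, between 1.13 and 1.54, lie on the side of EREG away from AREG (at −0.57) and BTC (at 0.77).

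NRG1 (ENSG00000157168, chromosome 8, 31639222 to 32855666), a neuregulin that binds ERBB3, was the 1 member that passed. It had 38.0, 39.0 and 37.6 CPM without particles and 50.03, 46.2 and 51.1 CPM in the exposed libraries. Every PS-MP library exceeded every control, and replicate 3 did not stand apart. The mean was 38.2 ± 0.739 against 49.1 ± 2.60 CPM (SD, n = 3), a rise of 0.36 ± 0.10 in log2 units (95% interval 0.14 to 0.58, edgeR adjusted p = 0.0432). The call lay close to the threshold and was lost without any 1 of the 6 libraries (adjusted p from 0.0560 without PS-MP replicate 3 to 0.171 without control replicate 1), under total-count scaling (0.106) and with no filter (0.0917), while the log2 fold change stayed between 0.30 and 0.40 over all alternatives. Without both replicate 3 libraries, the alternative added after the data were seen, the adjusted p was 0.0136, and 26.6% of tested genes were called. Counts per gene do not separate the isoforms of NRG1, which are known to include secreted and membrane-held forms.

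Over the 6 libraries, the genes that followed NRG1 most closely, among those with mean log2 CPM at or above 2, were SNX18, RUSF1 and ARMCX3 (Pearson r = 0.996, 0.996 and 0.995 among 11139 genes). This likeness is a description over 6 points that share the group difference. SNX18 encodes a sorting nexin of endocytic membranes, and ARMCX3 a protein of the mitochondrial outer membrane. For ERBB3, chosen after its values were seen, the closest were FAM227A and ASIC1 (r = 0.999 and 0.997), which shared the low level of control replicate 3 and PS-MP replicates 1 and 2.

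TGFA (ENSG00000163235, chromosome 2, 70447284 to 70554193), transforming growth factor alpha, had 16.8, 17.2 and 13.1 CPM without particles and 21.6, 18.8 and 20.9 CPM in the exposed libraries. The groups did not overlap, with control replicate 3 the lowest library. Its log2 fold change was 0.38 ± 0.14 (95% interval 0.07 to 0.69), which missed the threshold (adjusted p = 0.123, with alternatives from 0.114 to 0.323). HBEGF (ENSG00000113070, chromosome 5, 140332843 to 140346603), the heparin-binding ligand, had 3.77, 3.34 and 3.39 CPM without particles and 3.76, 4.26 and 4.46 CPM in the exposed libraries, from 64 to 84 counts per library. Its groups overlapped through control replicate 1 and PS-MP replicate 1 (log2 fold change 0.25 ± 0.19, 95% interval −0.16 to 0.67, adjusted p = 0.449). Groups without overlap, as in TGFA, BTC and NRG1, were found in 32.0% of all tested genes, 16.6% with higher exposed and 15.4% with lower exposed libraries. All 3 of the 10 were higher.

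ERRFI1 (ENSG00000116285, chromosome 1, 8004404 to 8026309), the inhibitor, was the most abundant of the 10 with 502, 526 and 506.5 CPM without particles and 509.5, 498 and 445 CPM in the exposed libraries. The groups overlapped, and PS-MP replicate 3 was the lowest library. The mean was 511 ± 12.7 against 484 ± 34.5 CPM (log2 fold change −0.08 ± 0.10, 95% interval −0.30 to 0.14, adjusted p = 0.666). An antisense lncRNA overlaps the gene with up to 55 counts. Over all alternatives the log2 fold change of ERRFI1 stayed between −0.15 and −0.02.

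**Figure D3:**
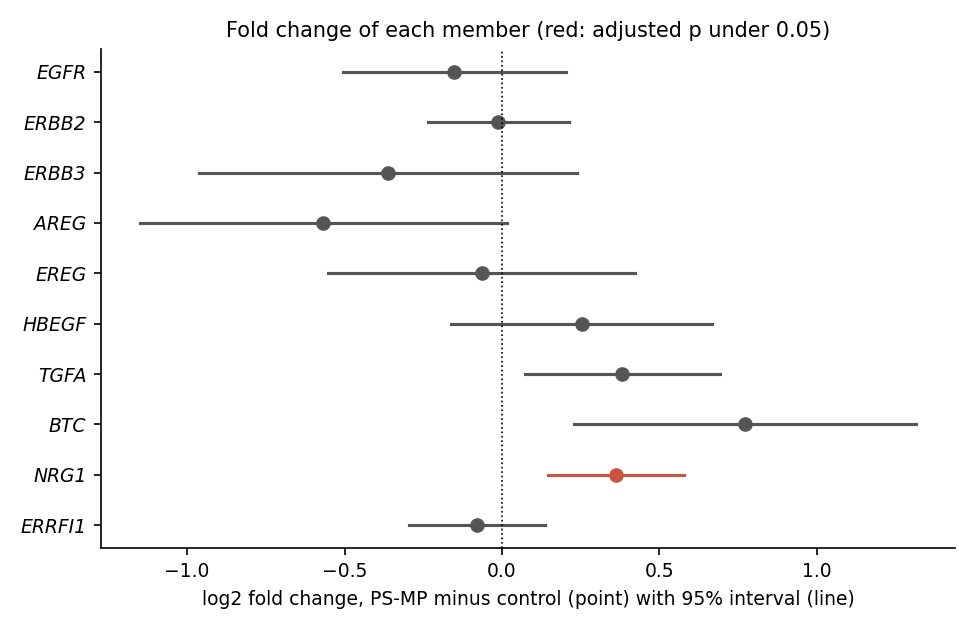
The log2 fold change of PS-MP against control is plotted for each of the 10 genes as a point with its 95% interval as a line. NRG1, in red, passed at an adjusted p of 0.0432, and the intervals of TGFA (0.07 to 0.69) and BTC (0.23 to 1.31) also lay above 0 before adjustment over all genes.

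Compared per length (CPM per kilobase of merged exons in GENCODE release 29), ERRFI1 led with 122 ± 3.04 in the controls (SD, n = 3). AREG, EREG and EGFR followed with 21.5 ± 9.83, 21.3 ± 8.59 and 15.6 ± 3.06, and these 3 did not differ beyond their spread. ERBB2 had 6.14 ± 0.531. NRG1, TGFA and ERBB3 had 3.37 ± 0.0653, 3.16 ± 0.462 and 2.74 ± 0.841, which overlapped as well, and HBEGF and BTC were lowest with 1.16 ± 0.0780 and 0.954 ± 0.205. With these lengths AREG stood above EREG only in control replicate 3, and EREG was the higher in the other 5 libraries. HBEGF had the higher mean in the controls and BTC in the exposed cells. AREG and EREG together held 77.7%, 78.7% and 88.9% of the summed level of the 6 ligands per length in control libraries and 77.2%, 77.2% and 70.9% in the exposed libraries.

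Levels of ligands and partner receptors were also set against EGFR within each library, where scaling cancels. The log2 ratio of TGFA to EGFR was −3.64, −3.70 and −3.53 in control libraries and −3.24, −3.23 and −2.80 in the exposed libraries, higher by 0.53 with no overlap (exact two-sided permutation test, p = 0.1, the smallest possible, adjusted p = 0.4 over 8 ratios). The ratios of NRG1 and BTC to EGFR were higher by 0.51 and 0.90 with overlapping groups (exact permutation p = 0.2 each, adjusted p = 0.4). The ratio of AREG to EGFR differed by −0.35 (exact permutation p = 1), that of EREG differed by 0.15 (exact permutation p = 0.9) and that of HBEGF by 0.39 (exact permutation p = 0.2). The ratio of ERBB2 to EGFR differed by 0.14 (exact permutation p = 0.6) and that of ERBB3 to EGFR by −0.23 (exact permutation p = 0.7).

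Of the other family genes ERBB4, EGF, EPGN and NRG3 were scarce, while NRG2 and NRG4 had CPM of the order of HBEGF and BTC. ERBB4, the further neuregulin receptor, had 3 to 20 counts per library and EGF 13 to 28 counts. NRG2 had 5.95, 6.54 and 6.001 CPM without particles and 6.02, 6.05 and 5.30 CPM in the exposed libraries, and NRG4 stood at 3.06 to 3.30 CPM and 2.18 to 3.87 CPM. None of ERBB4, EGF, NRG2 and NRG4 was called by edgeR, DESeq2 or limma-voom, and 0 had an unadjusted p under 0.05. EPGN, whose gene precedes EREG on chromosome 4, had 1 to 8 counts per library and NRG3 1 count in all, and neither was tested.

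The genes that release the ligands from the cell surface included 9 tested, of which 0 were called by edgeR, DESeq2 or limma-voom, while 6 were higher at an unadjusted p under 0.05, a level that 12.6% of all tested genes reached with a higher value. Without both replicate 3 libraries 4 of the 9 were called, beside 26.6% of all genes. The 6 had no overlap between groups and higher levels in the exposed libraries, beside 16.6% of all tested genes. RHBDF1 and RHBDF2, the iRhom proteins that carry ADAM17 to the cell surface, had log2 fold changes of 0.45 (11.01 ± 1.01 against 15.0 ± 0.394 CPM, adjusted p = 0.0615) and 0.26 (36.6 ± 0.276 against 43.9 ± 3.03 CPM, adjusted p = 0.141). ADAM19 and ADAM15 had 0.49 (adjusted p = 0.117) and 0.29 (adjusted p = 0.178). ADAM17 itself stood at 60.4, 59.9 and 64.6 CPM without particles and 66.9, 62.9 and 60.3 CPM in the exposed libraries (0.04, adjusted p = 0.841), and the median of the list was 0.26.

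Of the 21 tested genes of receptor endocytosis and attenuation, which include the ubiquitin ligase CBL and the LRIG family, 0 were called by edgeR, DESeq2 or limma-voom and 0 had an unadjusted p under 0.05, against 24.0% of all tested genes (median log2 fold change −0.03), while 3 were called without both replicate 3 libraries, against 26.6% of all genes. Smallest adjusted p-values were those of SOCS5, RNF41, PTPN1 and EPS15 (log2 fold changes 0.24, 0.19, 0.24 and −0.16, adjusted p from 0.224 to 0.391). RNF41 is a ubiquitin ligase known to lower ERBB3 protein.

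Among 33 tested adaptors and members of the RAS-ERK and PI3K-AKT pathways 3 rose and none fell, near the 9.56% called over all genes, and the median was 0.001. Without both replicate 3 libraries 9 were called, about the share over all genes under that alternative (26.6%). MAP2K2, the kinase MEK2, had 93.3, 88.8 and 87.8 CPM without particles and 133, 140 and 115 CPM in the exposed libraries (1.44-fold, adjusted p = 0.00973). It lost its call without PS-MP replicate 1 (adjusted p = 0.0586). SHC1, the adaptor that docks on activated receptors, had 341, 337 and 432 CPM without particles and 495.5, 505 and 588 CPM in the exposed libraries (1.43-fold, adjusted p = 0.0256). STAT3, a transcription factor activated by several cytokine and growth factor receptors, was 1.31-fold higher (225 ± 24.7 against 294 ± 14.5 CPM, adjusted p = 0.0479). SHC1 lost its call without any 1 library other than control replicate 3 and under total-count scaling (0.0573), and STAT3 without any 1 library other than PS-MP replicate 3, with RLE scaling (0.0504) and under total-count scaling (0.0871). With the replicate number as a block, STAT3 was not called either (adjusted p = 0.107).

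ERK-responsive genes moved in both directions. Of 24 tested, 3 rose and 2 fell, 5 in all by edgeR, by DESeq2 and by limma-voom, beside 9.56% of all tested genes, and the median was −0.01. Without both replicate 3 libraries 10 were called, beside 26.6% of all genes. The ERK phosphatase DUSP5 was 1.43-fold higher (34.5 ± 2.58 against 49.3 ± 2.87 CPM, adjusted p = 0.0118), and SPRED3 rose by 0.80 in log2 units (adjusted p = 0.0299). The transcription factor ETV4 was 1.46-fold lower (69.1 ± 2.26 against 47.3 ± 3.47 CPM, adjusted p = 0.00634), and the feedback inhibitor SPRY2 was 1.601-fold lower (31.4 ± 2.12 against 19.6 ± 4.12 CPM, adjusted p = 0.0193). ETV4 kept its call under every alternative, whereas DUSP5 lost its call without control replicate 1 or PS-MP replicate 1 or 2 (adjusted p up to 0.0749), SPRY2 without either of control replicates 1 and 2 or PS-MP replicate 2 (up to 0.0647), and SPRED3 without any 1 library other than control replicate 2 (up to 0.0901). With the replicate number as a block, DUSP5 and SPRED3 were not called either (adjusted p = 0.0520 and 0.107).

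**Figure D4:**
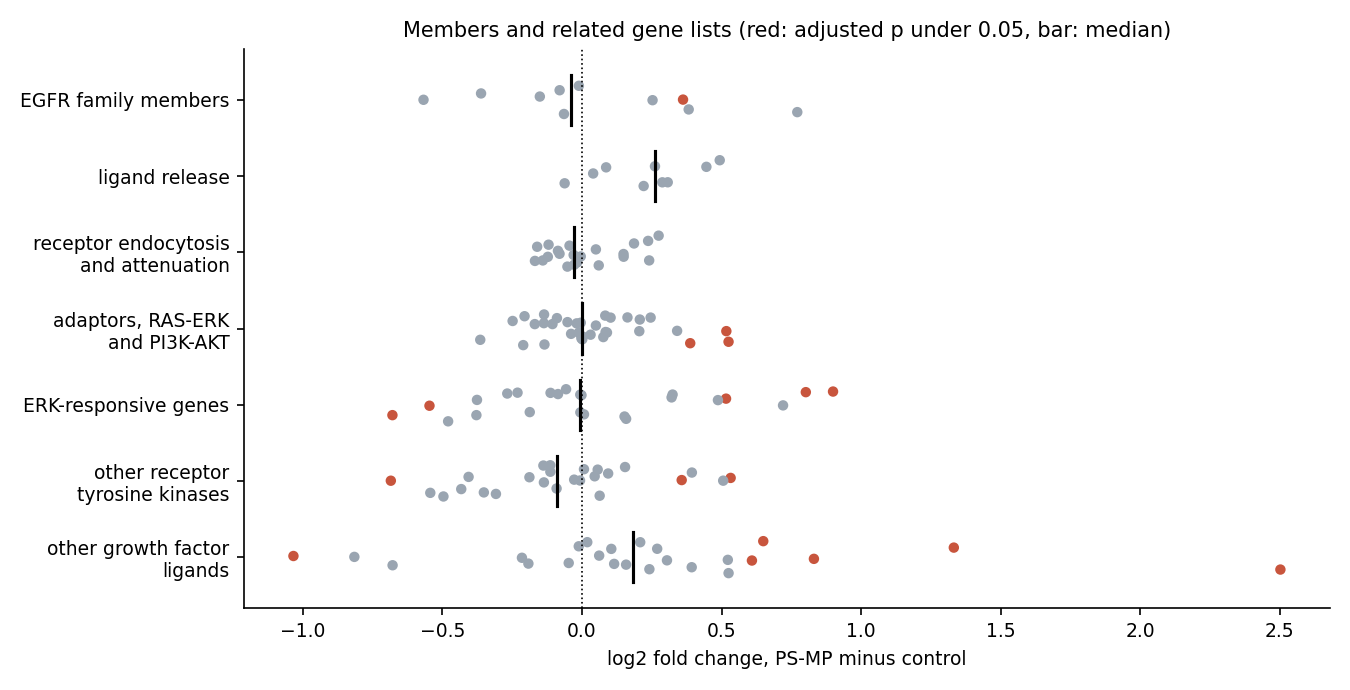
Each point is the log2 fold change of 1 tested gene, by list, with called genes in red and the median of the list as a bar. The medians of the family members (−0.04) and of the ERK-responsive genes (−0.01) lie near 0, and the ligand release genes (median 0.26) hold no called gene.

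Leaving out both replicate 3 libraries moved the fold changes of ERBB3, AREG and EREG more than any change of tool, scaling or filter did. ERBB3 ran from −0.96 to −0.21, AREG from −0.76 to 0.02 and EREG from −0.23 to 0.40 over the alternatives, while NRG1 ran from 0.30 to 0.40 and TGFA from 0.24 to 0.45.

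**Figure D5:**
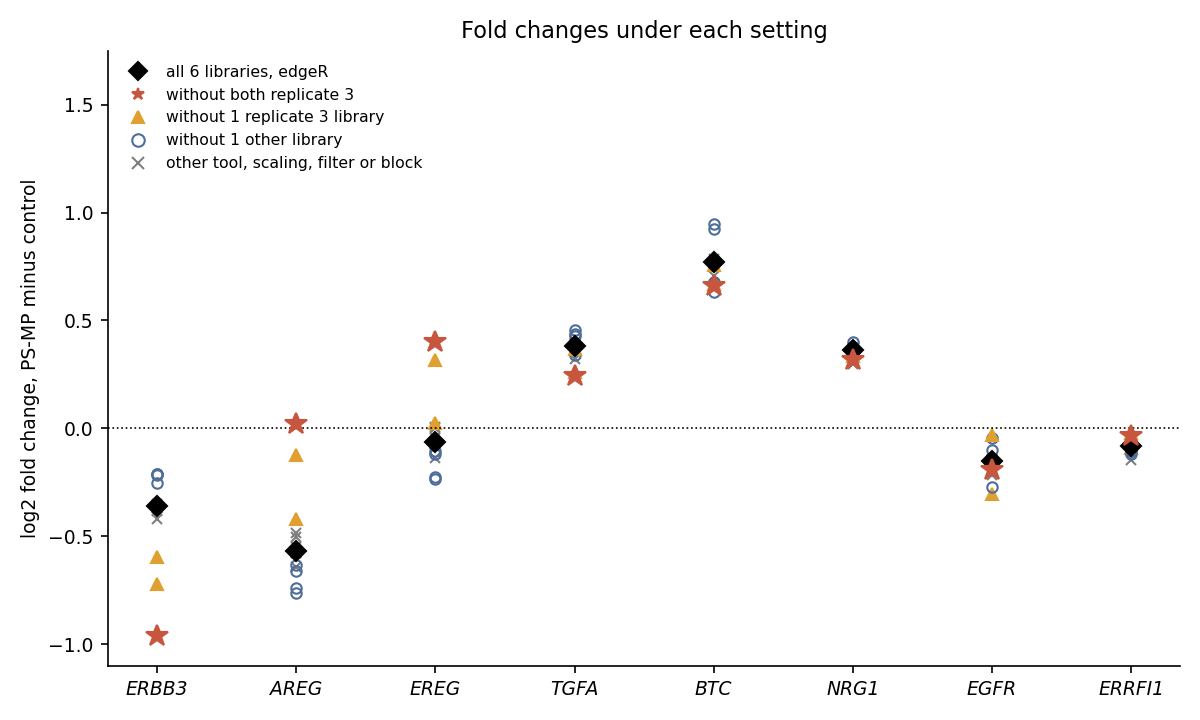
The log2 fold change of 8 of the genes is plotted under each alternative, with the value from all 6 libraries as a black diamond and the value without both replicate 3 libraries as a red star. ERBB3 moved down to −0.96 and EREG up to 0.40 without both replicate 3 libraries, whereas NRG1, at 0.32, and ERRFI1, at −0.03, stayed near their values.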

How the data were processed

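Whole-number counts per Ensembl gene were used as deposited, 1 column per library. The submitters' processing notes name GRCh38 as the build and list DESeq2, RSEM, StringTie, HISAT2 and fastp, and the deposited table carries the name of featureCounts. Strand setting, treatment of reads with several positions and annotation release are not given in the sources used here. RNA was poly(A)-selected and libraries were stranded, per the labels' protocols. Tests used edgeR 4.0.16 (R 4.3.3). After filterByExpr 15458 genes were left, TMM factors were applied, and the group difference was tested with robust quasi-likelihood fits and Benjamini-Hochberg adjustment over all tested genes at 0.05. The procedure was also run on simulated counts. These had the same dispersion for every gene and no replicate that stood apart, unlike these libraries. The SE of a log2 fold change is approximate, from its F statistic. Ratios used a pseudocount of 0.5 counts and exact permutation tests (scipy 1.17.1). The count table holds no gene length, so merged exon length from GENCODE release 29 was used. Promoters came from RefSeq (GRCh38.p14), with windows for 8 of the 10 genes. The 10 genes, the lists and the tests were chosen with earlier results of these data known. Named beside them are up to 4 genes per list with the smallest adjusted p, called neighbours on chromosome 4, and, for NRG1, the 3 closest profiles; some list genes that the rule names are not reported here. SPRED3, ADAM17, TGFA and CXCL promoter matches and the profiles of ERBB3 were described after their values were seen. Alternatives were DESeq2 1.42.0, limma-voom (limma 3.58.1), other scalings and filters, a replicate block, and fits lacking 1 library or both replicate 3 libraries. Counting floors cover counting error only.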

Additional observations from a re-analysis of the deposited data

How the results depend on the processing

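By edgeR 1478 genes were called with all libraries, 750 with the replicate number as a block, 771 to 1696 with 1 library left out and 4129 without both replicate 3 libraries. Of the 10 family genes 1 was called, against 0 under total-count scaling, 0 with the block, 0 with any 1 library left out and 3 without both replicate 3 libraries. Of the genes in the other lists 17 were called, against 11 with the block, 9 to 17 with 1 library left out and 46 without both replicate 3 libraries. These counts move with the share called over all tested genes. That share was 9.56% with all libraries, 9.03% under total-count scaling and 4.85% with the block. It was 4.81% to 10.8% with 1 library left out and 26.6% without both replicate 3 libraries. NRG1 had an adjusted p of 0.153 with the replicate block. Same-numbered libraries did not deviate together (correlations of −0.095, −0.108 and −0.181), and no library correlated best with its own number in the other group. These correlations use deviations from the mean of 3 libraries and mostly set replicate 3 against the others. They therefore cannot show whether the number stands for a shared dish, day or batch. Signs turned for EREG (log2 fold change 0.0001 with limma-voom, 0.005 with the block and 0.4014 without both replicate 3 libraries) and, also without both, for AREG (0.0188), ERBB4 (−0.3609) and NRG4 (0.2009). With 1 library left out EREG ran from −0.2327 to 0.3167, ERBB2 from −0.0819 to 0.0284, ERBB4 from −0.0484 to 1.0851 and NRG4 from −0.2215 to 0.1765. The cause was not tested. The lengths of coding sequences were not used, since no protein table was at hand. With the longest coding transcript as length, AREG, EREG and EGFR kept ranks 2, 3 and 4 in the controls, and ERBB3 and TGFA exchanged ranks 7 and 8. Levels moved with the length used, and in the controls ERBB2 then had 13.2, NRG1 6.44, ERBB3 4.18 and TGFA 3.64 CPM per kilobase. The order of AREG and EREG within each library was described with merged exon length only. Total-count scaling gave 535 higher and 861 lower genes, TMM 759 and 719. A pseudocount of 2 counts turned no ratio. HBEGF and BTC rest on 47 to 98 counts per library, which limits their precision.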

Other observations

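Of 24 tested growth factor genes outside the EGFR family 5 rose and 1 fell, beside 9.56% called over all tested genes, with a median log2 fold change of 0.18. CSF3, the granulocyte colony-stimulating factor, had 0.883, 1.01 and 1.28 CPM without particles and 6.37, 7.45 and 4.403 CPM with them (5.67-fold, edgeR adjusted p = 0.000273). GDF15, a stress-induced member of the TGF-beta superfamily, was 2.52-fold higher (32.9 ± 3.98 against 82.7 ± 23.2 CPM, n = 3, adjusted p = 0.00147), GRN, which encodes progranulin, 1.57-fold (adjusted p = 0.00426) and CSF1, the macrophage colony-stimulating factor, 1.78-fold (adjusted p = 0.00479). EFNA1, chosen after its value was seen, rose by 0.61 in log2 units (adjusted p = 0.0300) and was no longer called in 4 of the 6 fits lacking 1 library, those without control replicate 2, control replicate 3, PS-MP replicate 1 and PS-MP replicate 2 (up to 0.129). FGFBP1, a carrier of fibroblast growth factors and named after its value was seen, was 2.05-fold lower (11.7 ± 2.06 against 5.72 ± 1.05 CPM, adjusted p = 0.00725).

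Among 25 tested receptor tyrosine kinases of other families 2 rose and 1 fell, near the 9.56% over all genes, with a median of −0.09. The ephrin receptor EPHB2 was 1.45-fold higher (41.0 ± 1.33 against 59.4 ± 4.89 CPM, n = 3, edgeR adjusted p = 0.00875) and the collagen receptor DDR1 1.28-fold higher (57.4 ± 1.87 against 73.5 ± 4.96 CPM, adjusted p = 0.0454), a call lost without any 1 library (adjusted p from 0.0634 to 0.153). The neurotrophin receptor NTRK3 was 1.61-fold lower (58.4 ± 8.05 against 36.3 ± 4.78 CPM, adjusted p = 0.00954), and its call was lost without PS-MP replicate 1 (0.0620) or 2 (0.0515). PTK7 had a log2 fold change of −0.54 and did not pass (adjusted p = 0.0814).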
